A study of Mus musculus with 24 samples.

Results

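Transcripts of 8 genes with roles in spermatogonial differentiation and the entry into meiosis were followed in whole testes. They were *Kit*, *Stra8*, *Sohlh1*, *Sohlh2*, *Dmrt1*, *Dmrtb1*, *Meioc* and *Ythdc2*. The testes came from wild-type (WT) mice and from mice lacking ATAD2, a bromodomain-containing AAA ATPase. The genes were chosen by name from their known roles, with earlier results of these data known. They are 8 of the 24456 genes in the count tables, of which 7 were found by symbol and *Meioc* under its older symbol *Gm1564*. Testes had been collected on postnatal days 20, 22, 24 and 26, and ribosome-depleted total RNA was sequenced strand-specifically. By the sample labels, each genotype was represented by 4 libraries on either of the first 2 days and by 2 on either of the last 2, or 24 in all. KO stands for homozygous *Atad2* knockout: a *lacZ* cassette traps the *Atad2* transcript, and mice with Cre expressed in all tissues from a CMV promoter had been used to remove the *neo* cassette and exon 12, so that the loss is not restricted to germ cells. Whether the WT mice carried Cre was not stated in the sources used here. The text on RNA extraction in the labels also describes the purification of spermatogenic fractions, but the study's methods describe harvested testes, and markers of somatic testis cells were present in every library. A library name such as WT_d20_2 gives the genotype, the day and the replicate number.

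In mouse spermatogenesis, spermatogonia stop self-renewing, become differentiating cells that carry the receptor tyrosine kinase KIT, divide, and enter meiosis under retinoic acid. SOHLH1 and SOHLH2 are basic helix-loop-helix factors that promote *Kit* expression and differentiation. DMRT1 and DMRTB1, also known as DMRT6, are DM-domain factors: DMRT1 holds back *Stra8* and meiosis in spermatogonia, and DMRTB1 takes part in the shift from the mitotic to the meiotic programme. STRA8, induced by retinoic acid, activates meiotic genes together with MEIOSIN. MEIOC and the RNA helicase YTHDC2 act as a complex on transcripts and are needed to replace the mitotic programme by meiotic prophase. At the ages sampled here the first wave has passed these steps and is producing spermatids, and later waves supply the spermatogonia and early spermatocytes. In bulk tissue, fewer cells of a type and less RNA per cell cannot be told apart.

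In mm10, with GENCODE M21 gene models, *Kit* lies on the plus strand of chromosome 5 (75574916 to 75656722), *Stra8* on the plus strand of chromosome 6 (34920163 to 34939344) and *Sohlh1* on the minus strand of chromosome 2 (25842995 to 25847248). *Sohlh2* is on the plus strand of chromosome 3 (55182028 to 55209957), *Dmrt1* on the plus strand of chromosome 19 (25505618 to 25604329), and *Dmrtb1* on the minus strand of chromosome 4 (107676290 to 107684230). *Meioc* is on the plus strand of chromosome 11 (102663716 to 102682237). No other gene model overlapped any of the 8.

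The promoters of *Stra8*, *Sohlh2* and *Sohlh1* are shown because these genes had the largest declines with age in WT testis. Each sequence runs from 250 bases before the annotated start to 50 after it, 5′ to 3′ on the gene's strand, and was taken from RefSeq on GRCm38.p6. Capitals mark matches on either strand to CACGTG (the E-box with a central CG), CNCCTCAG (letters reported for STRA8 and MEIOSIN), AGGTCA (core site of nuclear receptors such as the retinoic acid receptors) and ACAATGT (core of the DM-domain site).
*Stra8*, chr6:34920698-34920997, plus strand: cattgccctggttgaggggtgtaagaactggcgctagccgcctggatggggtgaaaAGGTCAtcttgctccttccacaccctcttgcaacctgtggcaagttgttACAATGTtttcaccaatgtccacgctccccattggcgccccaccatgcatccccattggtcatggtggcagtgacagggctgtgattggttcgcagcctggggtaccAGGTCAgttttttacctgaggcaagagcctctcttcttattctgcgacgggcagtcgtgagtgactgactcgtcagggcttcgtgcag
*Sohlh1*, chr2:25847199-25847498, minus strand: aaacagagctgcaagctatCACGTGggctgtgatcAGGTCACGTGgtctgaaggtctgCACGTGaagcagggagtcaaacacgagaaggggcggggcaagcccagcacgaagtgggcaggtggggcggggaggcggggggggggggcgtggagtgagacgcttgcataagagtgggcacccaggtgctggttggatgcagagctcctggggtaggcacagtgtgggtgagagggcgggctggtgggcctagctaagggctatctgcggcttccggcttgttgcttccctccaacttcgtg
*Sohlh2*, chr3:55181794-55182093, plus strand: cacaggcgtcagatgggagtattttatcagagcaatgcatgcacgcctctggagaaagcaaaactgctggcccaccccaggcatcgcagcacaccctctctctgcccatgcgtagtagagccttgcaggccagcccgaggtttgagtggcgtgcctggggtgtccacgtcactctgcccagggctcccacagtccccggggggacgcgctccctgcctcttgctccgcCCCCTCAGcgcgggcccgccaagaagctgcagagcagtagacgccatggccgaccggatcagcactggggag
The *Stra8* promoter held AGGTCA at 194 and 38 bases before the start and ACAATGT at 145 bases before it. The *Sohlh1* promoter held CACGTG 3 times, at 231, 211 and 192 bases before the start, with an AGGTCA at 215 bases before the start that overlaps the second of these. The *Sohlh2* promoter held CNCCTCAG once, 22 bases before the start. Of 32851 RefSeq promoters of the same 300 bases, 7.15% held CACGTG, 7.94% CNCCTCAG, 16.3% AGGTCA and 2.96% ACAATGT. The looser E-box CANNTG, which includes CACGTG, was left in lower case, since 72.3% of the promoters hold it. None of the 4 capitalised motifs was found in the RefSeq promoters of *Kit*, *Dmrtb1* and *Meioc* that were searched. A match describes these letters only and is no evidence of binding.

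Between 10709667 and 19491935 read pairs were assigned to genes per library (median 14935218.5). *Atad2* itself ran from 30.8 to 53.0 CPM (counts brought to a common library size by TMM, the trimmed mean of M values) over the 12 KO libraries and from 76.1 to 171 over the 12 WT libraries, and at each day the highest KO library was below the lowest WT library. All 12 Sertoli and all 8 Leydig cell markers on the lists used here had counts, as did germ cell markers from undifferentiated spermatogonia to elongating spermatids, so that somatic and germ cells of the testis were both represented. All 8 genes passed the low-count filter that left 17170 genes for testing.

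Levels of different genes were compared per kilobase of exon. In WT testis at day 20, *Meioc* was highest with 151 ± 51.1 CPM per kb (mean ± SD, n = 4), followed by *Dmrtb1* with 70.0 ± 33.0, *Dmrt1* with 26.2 ± 3.74, *Stra8* with 19.7 ± 3.58, *Ythdc2* with 17.2 ± 4.15, *Sohlh2* with 15.2 ± 1.18, *Kit* with 10.3 ± 1.56 and *Sohlh1* with 3.82 ± 0.359. In this order the libraries of each gene from *Dmrtb1* down to *Sohlh2* overlapped those of the next, whereas *Meioc*, *Kit* and *Sohlh1* stood apart from their neighbours. *Dmrtb1* overlapped *Dmrt1* through 1 library, WT_d20_2 with 21.2 CPM per kb, and its other 3 libraries (78.6 to 91.2) were above the highest of *Dmrt1* (31.1). All libraries of *Dmrtb1*, *Dmrt1* and *Stra8* were above those of *Sohlh2* (highest 16.4). By day 26 *Dmrtb1* had taken first place, with 208 ± 17.5 CPM per kb in WT and 281 ± 31.8 in KO (n = 2 each), above *Meioc* with 113 ± 8.23 and 113 ± 3.52. At day 22 the libraries of these 2 genes overlapped in both genotypes. *Sohlh1* was the lowest of the 8 in every group, with 2.02 ± 0.0192 in KO at day 26.

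Age changed most of the genes. From day 20 to day 26 in WT testis, 6 of the 8 fell and 1 rose, where 42.5% of all tested genes changed (24.4% up and 18.1% down). In KO testis 5 fell and 1 rose, where 52.2% of all tested genes changed (27.2% up and 24.9% down). The balance over all genes depended on the scaling: by library totals it was 21.2% up and 23.7% down in WT and 21.5% up and 35.2% down in KO, and by the size factors of DESeq2 (RLE) 25.5% and 16.2% in WT and 29.9% and 20.6% in KO. By library totals 7 of the 8 genes fell in both genotypes, and with either scaling *Dmrtb1* rose. The median log2 change of the 8 genes was -0.71 in WT and -0.66 in KO, compared with -0.04 and -0.07 over all tested genes. The word changed is used where the quasi-likelihood test of edgeR gave an adjusted p below 0.05. The genes that fell in both genotypes were *Kit*, *Sohlh1*, *Sohlh2*, *Dmrt1* and *Ythdc2*, *Stra8* passed the threshold in WT, and *Dmrtb1* rose in both. The difference between the KO and the WT change was called for 0 of 8 genes by edgeR and by DESeq2, with 0 of 8 at an unadjusted p under 0.05. Over all tested genes edgeR called 0 (0%) for this difference and DESeq2 211, with 1857 at an unadjusted p under 0.05 in edgeR.

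**Figure D1:**
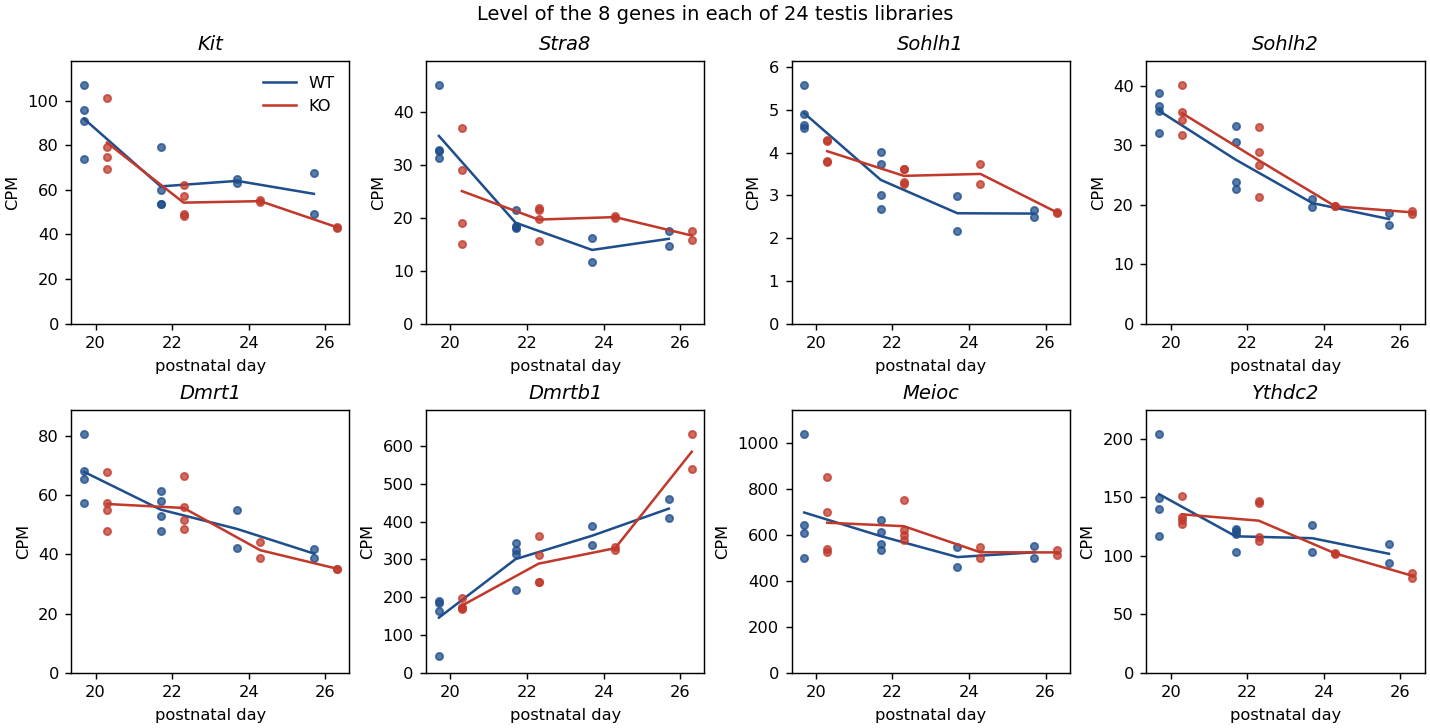
Level of each of the 8 genes (vertical axis, CPM) against postnatal day (horizontal axis) in all 24 libraries. Each point is a library, WT in blue and KO in red, and lines join the group means. *Dmrtb1* rose from a WT mean of 146 at day 20 to 434 at day 26, and the other genes were lower at day 26 than at day 20 in both genotypes.

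No difference between KO and WT passed the test for any of the 8 genes at any single day, over the mean of the 4 days or in the joint test over days. The edgeR test called 0 of 8 in each of these comparisons and DESeq2 likewise called 0. An unadjusted p under 0.05 was found for 1 gene at day 20 (*Stra8*), for 0 genes at days 22, 24 and 26 and in the joint test, and for 1 gene over the mean of the days (*Kit*), where 2141 of the 17170 tested genes had one at day 20 and 3982 over the mean of the days. As background, 3.34% of the 17170 tested genes were called at day 20, 2.98% with KO higher and 0.361% with KO lower. The share was 2.51% for day 22 (1.26% higher, 1.25% lower), 0.0874% for day 24 (0.0175% higher, 0.0699% lower) and 0.0466% for day 26 (0% higher, 0.0466% lower). Over the mean of the days it was 7.08% (3.52% higher, 3.56% lower), and in the joint test 0.00582%. In order of age the median log2 difference of the 8 genes was -0.17, 0.03, -0.09 and 0.01, beside 0.00, 0.01, -0.01 and -0.04 over all tested genes.

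KO and WT libraries did not overlap for 1 of 8 genes at day 20, with KO below, where this held for 4.71% of all tested genes (1.68% with KO below, 3.03% above). At day 22 they overlapped for all 8, where 8.09% of tested genes did not overlap (4.45% below, 3.64% above). At day 24 they did not overlap for 5 of 8, 3 below and 2 above, beside 44% of tested genes (21.4% below, 22.6% above). At day 26 the count was 4 of 8, 3 below and 1 above, beside 59% (31.1% below, 27.8% above). With 2 libraries per genotype on the last 2 days, separation was common among all genes.

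**Figure D2:**
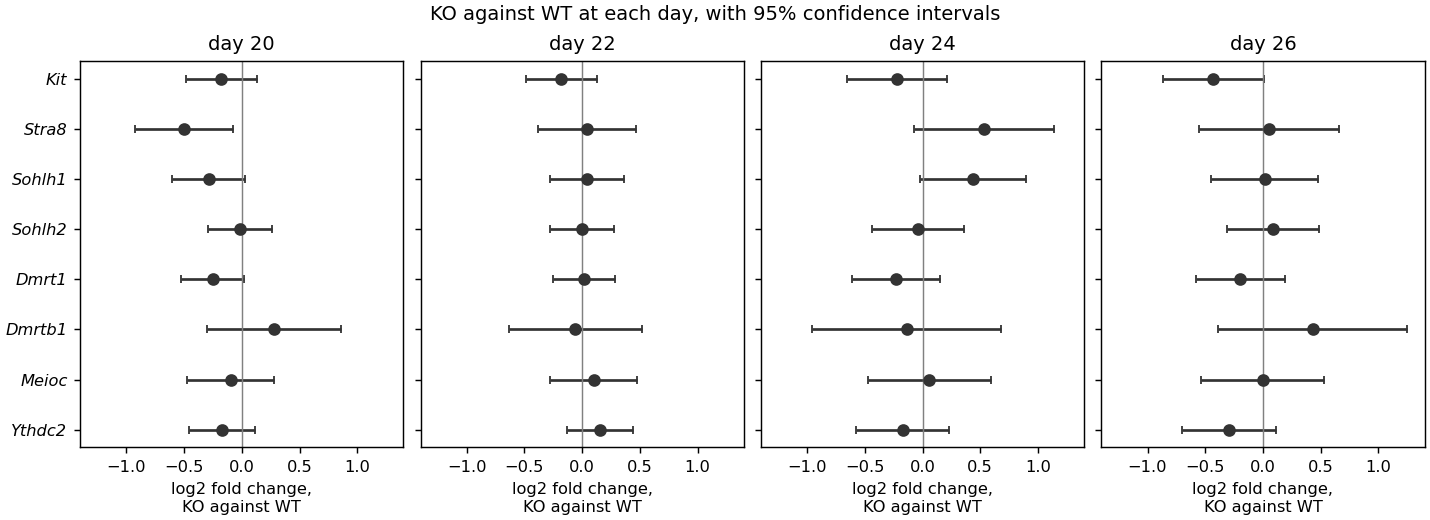
Log2 fold change of KO against WT (horizontal axis) for the 8 genes at each of the 4 days, with bars for the 95% confidence interval of the edgeR fit. The interval of *Stra8* at day 20 (-0.92 to -0.08) is the one that leaves out 0 among the 32 shown, before adjustment for the number of genes tested.

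*Kit* encodes the receptor for stem cell factor and marks differentiating spermatogonia. At day 20 its level was 73.6, 107, 95.9 and 90.7 CPM in the WT libraries and 74.9, 101, 79.2 and 69.3 in the KO libraries, in the order of the replicates. It was 53.8, 79.1, 53.5 and 59.7 in WT and 57.4, 48.1, 62.3 and 49.2 in KO at day 22, 63.2 and 64.7 against 55.5 and 54.3 at day 24, and 67.4 and 48.9 against 43.0 and 43.4 at day 26. The genotypes overlapped at days 20 and 22 and did not overlap at days 24 and 26, when both KO libraries were below both WT libraries. Most of the fall with age came early, with group means dropping by 33.0% in WT and 33.1% in KO between days 20 and 22. From day 20 to day 26 the log2 change was -0.66 in WT (SE 0.186, adjusted p = 0.00733) and -0.91 in KO (SE 0.189, adjusted p = 0.000514), and the WT call was lost without WT_d26_2 (-0.44, adjusted p = 0.166). The KO mean was below the WT mean at all 4 days, by log2 differences of -0.18 at days 20 and 22, -0.22 at day 24 and -0.43 at day 26. Averaged over the 4 days the difference was -0.25 (SE 0.0907, 95% interval -0.44 to -0.06), a level of 0.840 times WT, with an unadjusted p of 0.0112 and an adjusted p of 0.0924, so that it did not pass the threshold. Without KO_d20_2 the adjusted p of this mean was 0.0435, in a fit that called 1631 of 17142 genes over the mean of the days. KIT is also made by Leydig cells and mast cells. The 8 Leydig markers summed to 389 to 513 CPM in WT and 396 to 933 in KO at day 20, and to 779 to 991 and 521 to 1239 at day 22. At day 24 they summed to 647 to 903 in WT and 1126 to 1374 in KO, and at day 26 to 1346 to 2137 and 1113 to 1253. The 5 mast cell markers summed to at most 4.0 CPM in any library. The part of Leydig and mast cells in the *Kit* values was not tested.

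*Sohlh1* had 5.58, 4.63, 4.57 and 4.90 CPM in WT and 3.77, 3.79, 4.29 and 4.27 in KO at day 20, and all 4 KO libraries were below all 4 WT libraries. At day 22 the values were 2.68, 4.01, 3.73 and 3.02 in WT and 3.27, 3.31, 3.62 and 3.62 in KO, and the groups overlapped. At day 24 the order was the opposite of that at day 20, with 2.17 and 2.99 in WT and 3.73 and 3.27 in KO, and at day 26 the values were 2.49 and 2.65 and 2.62 and 2.58. The log2 differences of KO from WT were -0.29 at day 20 (SE 0.151, adjusted p = 0.471), 0.04 at day 22, 0.44 at day 24 (SE 0.221, adjusted p = 0.984) and 0.02 at day 26, none of which passed the threshold. With age *Sohlh1* fell by 0.93 on the log2 scale in WT (SE 0.195, adjusted p = 0.000607) and by 0.63 in KO (SE 0.193, adjusted p = 0.00980). The KO call was lost when either day 26 KO library was left out (adjusted p = 0.0540 and 0.0682).

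*Sohlh2*, which encodes the partner of SOHLH1, ran from 32.1 to 38.8 CPM in WT and from 31.7 to 40.2 in KO at day 20, and from 16.6 to 18.7 in WT and 18.5 to 19.0 in KO at day 26. KO and WT means were close at all 4 days, with log2 differences of -0.02, -0.0042, -0.04 and 0.09 in order of age. The 95% intervals of these differences were, in the same order, -0.29 to 0.26, -0.28 to 0.27, -0.44 to 0.36 and -0.31 to 0.49. *Sohlh2* fell with age by 1.02 in WT (SE 0.172, adjusted p = 5.93e-05) and by 0.92 in KO (SE 0.171, adjusted p = 0.000180), and both calls held in every alternative run. The mean was lower at each successive day in both genotypes.

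*Dmrt1* is expressed in spermatogonia and in Sertoli cells. In WT it ran from 57.3 to 80.7 CPM at day 20 and from 38.8 to 41.8 at day 26, and in KO from 47.9 to 67.9 and then 35.1 to 35.2. At day 26 the KO libraries were below the WT libraries, and at the 3 earlier days the genotypes overlapped. The log2 difference of KO from WT was -0.25 at day 20 (SE 0.130, adjusted p = 0.455), 0.01 at day 22, -0.23 at day 24 and -0.20 at day 26. Over the mean of the 4 days it was -0.17 (SE 0.0801, 95% interval -0.33 to 0.00, adjusted p = 0.216). *Dmrt1* fell with age by 0.75 in WT (SE 0.165, adjusted p = 0.000929) and by 0.70 in KO (SE 0.165, adjusted p = 0.00155). Of 12 Sertoli markers, 10 in WT and 9 in KO also fell, with a median log2 change of -0.71 in each, and their sum went from 2353 to 3106 CPM in WT and 2147 to 2359 in KO at day 20 to 1459 to 1692 and 1691 to 1718 at day 26. The part of Sertoli cells in the *Dmrt1* change was not tested.

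*Dmrtb1* was the gene that went the other way. It had 189.9, 44.1, 186 and 164 CPM in WT and 174, 171, 168 and 198 in KO at day 20, and 344, 219.8, 315 and 324 in WT and 239, 363, 241 and 312 in KO at day 22. At day 24 it had 388 and 337 in WT and 326 and 334 in KO, and at day 26 408 and 460.1 and 538 and 632. One WT library of day 20, WT_d20_2, was far below the other 3. The KO libraries were below the WT libraries at day 24 and above them at day 26, with log2 differences of -0.14 (SE 0.392) and 0.43 (SE 0.392, 95% interval -0.39 to 1.25, adjusted p = 0.708). These SEs rest on a spread estimated over all 24 libraries, WT_d20_2 among them, and not on the libraries of that day alone. With day 26 fitted alone the difference was 0.44 (SE 0.107, adjusted p = 0.0228), in a setting that called 12.8% of all genes tested. At day 20 the log2 difference was 0.28 (SE 0.279) with all libraries and -0.03 (SE 0.150) without WT_d20_2, so that its sign rested on that library. The rise with age was 1.57 in WT (SE 0.327, adjusted p = 0.000653) and 1.72 in KO (SE 0.327, adjusted p = 0.000252), or 2.97-fold and 3.29-fold. Without WT_d20_2 the WT rise was 1.23, and it was still called. Of 10 pachytene markers, 6 rose in WT and 8 in KO, and all 9 round spermatid markers rose in both. The part of these cells in the *Dmrtb1* rise was not tested.

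*Stra8* had the largest KO difference of the 8 at day 20. Its values were 32.7, 45.1, 31.2 and 32.8 CPM in WT and 29.0, 36.9, 19.1 and 15.1 in KO, and the KO libraries spread on both sides of the lowest WT library. At day 22 they were 18.1, 18.2, 21.6 and 18.4 in WT and 15.6, 19.7, 21.5 and 21.8 in KO and overlapped. At day 24 WT had 11.7 and 16.2 and KO 20.0 and 20.3, with both KO libraries higher, and at day 26 WT had 14.6 and 17.4 and KO 17.5 and 15.8. The log2 difference of KO from WT was -0.50 at day 20 (SE 0.203, 95% interval -0.92 to -0.08), with an unadjusted p of 0.0228 and an adjusted p of 0.269. At day 24 it was 0.53 (SE 0.293, 95% interval -0.08 to 1.14) with an unadjusted p of 0.0831, and at days 22 and 26 it was 0.04 and 0.06. The joint test of whether the KO difference varied among days gave an unadjusted p of 0.0506 and an adjusted p of 0.554. In WT *Stra8* fell with age by 1.14 (SE 0.263, adjusted p = 0.00144), the largest decline of the 8, and its mean had already dropped by 46.2% between days 20 and 22. In KO the log2 change was -0.59 (SE 0.257, adjusted p = 0.0594), with a mean 21.5% lower at day 22 than at day 20. This KO change was called when KO_d20_3, KO_d20_4 or WT_d20_2 was left out (adjusted p = 0.0336, 0.00892 and 0.0393) and with scaling by library totals (-0.77, adjusted p = 0.00990). The difference between these changes was 0.55 (SE 0.356, 95% interval -0.19 to 1.29, adjusted p = 0.641), so that a smaller fall in KO was not shown.

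*Meioc* encodes a meiosis-specific protein without catalytic activity of its own, and *Ythdc2* its helicase partner. *Meioc* ran from 497 to 1038 CPM in WT and from 524 to 850 in KO at day 20, and from 497 to 551 in WT and 512 to 535 in KO at day 26. The genotypes overlapped at every day, and the log2 differences of KO from WT lay between -0.09 and 0.10. *Meioc* was the one gene not called with age in either genotype, with changes of -0.41 in WT (SE 0.226, 95% interval -0.88 to 0.06, adjusted p = 0.148) and -0.32 in KO (SE 0.225, 95% interval -0.79 to 0.15, adjusted p = 0.243). The WT change of *Meioc* was called without WT_d20_3 (-0.57, adjusted p = 0.0377), and both were called with scaling by library totals (adjusted p = 0.0429 in WT and 0.0271 in KO). *Ythdc2* ran from 117 to 204 CPM in WT and 127 to 151 in KO at day 20. At day 26 it had 93.6 and 109.6 in WT and 80.5 and 85.3 in KO, without overlap, and at day 24 127 and 103 in WT and 102 and 101 in KO, again with KO lower. Its log2 differences of KO from WT were -0.17, 0.16, -0.17 and -0.29 from day 20 to day 26, the last with an SE of 0.195 and an adjusted p of 0.589. It fell with age by 0.58 in WT (SE 0.172, adjusted p = 0.00958) and by 0.71 in KO (SE 0.174, adjusted p = 0.00210), and the WT call was lost without WT_d26_1 (-0.48, adjusted p = 0.106).

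**Figure D3:**
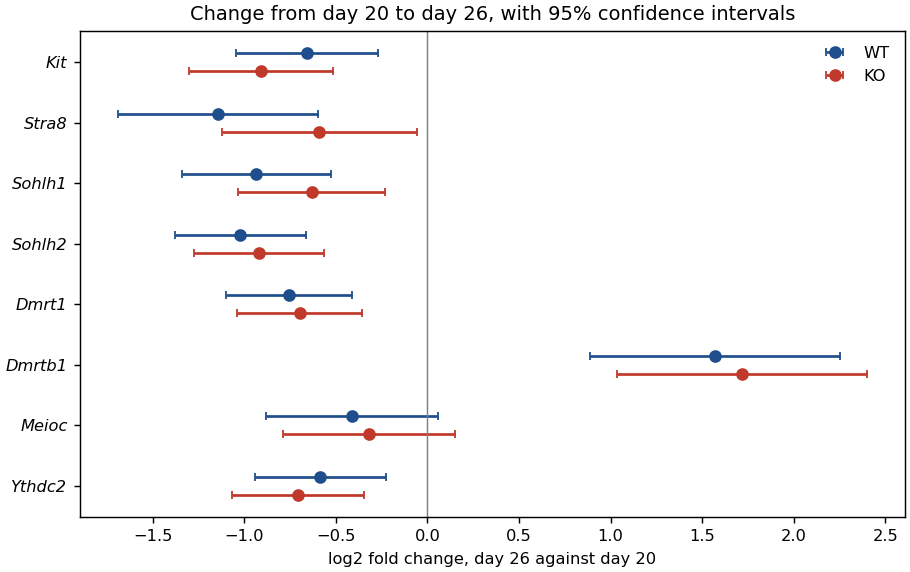
Log2 fold change from day 20 to day 26 (horizontal axis) of each of the 8 genes, in WT (blue) and KO (red), with bars for the 95% confidence interval of the edgeR fit. The intervals of *Meioc* cross 0 in both genotypes, those of *Dmrtb1* lie above 0, and the WT and KO intervals of each gene overlap.

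At day 20, part of the spread within groups was shared among genes. In WT_d20_2 *Dmrtb1* was 0.245 times the mean of the other 3 WT libraries, while *Meioc* was 1.78 times, *Ythdc2* 1.51 times and *Kit* 1.23 times that mean, and *Stra8* was also above it. In KO_d20_2 *Stra8* was 1.75 times, *Meioc* 1.45 times, *Kit* 1.36 times and *Ythdc2* 1.16 times the mean of the other 3 KO libraries, but *Dmrtb1* was not low. The second replicate was thus the highest of its group for *Kit*, *Stra8*, *Meioc* and *Ythdc2* in both genotypes. The 7 elongating spermatid markers summed to 7.5 CPM in KO_d20_2 against 25.9 to 89.7 in the other KO libraries, and to 2.7 CPM in WT_d20_2 against 3.4 to 9.4 in the other WT libraries. The 9 round spermatid markers summed to 188 CPM in KO_d20_2, the lowest of its group, and to 173 in WT_d20_2, the highest of its group (others 140 to 166). Without KO_d20_2 the day 20 difference of *Stra8* was -0.75 and its adjusted p was 0.0227, and over all left-out libraries it ranged from -0.75 to -0.32. WT_d20_2 also stood apart as a library. It had the fewest counts assigned to genes of the 8 libraries of day 20 (10709667, others 12156722 to 15782741) and the largest shares of pairs with several alignments (13.7%, others 5.98% to 8.80%) and of unassigned pairs (69.0%, others 56.2% to 64.7%). The part of these library properties in its values was not tested.

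**Figure D4:**
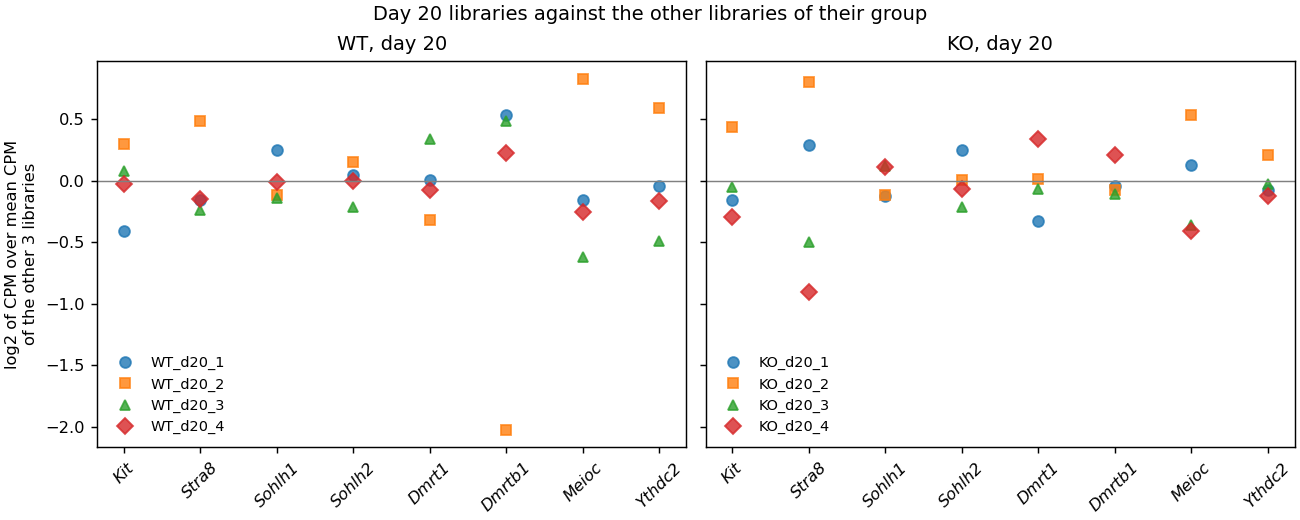
Each day 20 library against the other 3 of its group (vertical axis, log2 of CPM over their mean), for the 8 genes, with WT on the left and KO on the right and a symbol for each replicate. WT_d20_2 lies far below the others for *Dmrtb1* (0.245 times their mean), and the second replicates lie highest for *Kit*, *Stra8*, *Meioc* and *Ythdc2*.

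At day 20 the round spermatid markers summed to more in KO, at 188 to 276 CPM (mean 233) against 140 to 173 (mean 161) in WT. Of these 9 markers, 6 were called higher in KO, with a median log2 difference of 3.27, a larger ratio than that of the sums. Of 7 elongating spermatid markers, 3 were called higher at day 20 and 4 at day 22. Their day 20 sums overlapped, at 7.5 to 89.7 CPM in KO and 2.7 to 9.4 in WT. Of all tested genes, 2.98% were called higher in KO at day 20 and 1.26% at day 22. These calls moved with the fit. At day 20 DESeq2 called 7 of the 9 round spermatid markers and 3 of the 3 elongating spermatid markers to which it gave an adjusted p. Over all genes it called 760 of 18089 higher in KO at that day. At day 22 it called 0 of the 3 elongating spermatid markers to which it gave an adjusted p. Scaling by library totals or RLE left the day 20 calls at 6 and 3. With the replicate number as a block, 2 round and 2 elongating spermatid markers were called at day 20 and 0 at day 22. With each day fitted alone, which left 5 round and 4 elongating spermatid markers for testing at day 20, 0 markers of either list were called at day 20 or day 22. In that setting 5 of 15265 genes were called at day 20, 0 of them higher in KO, and 69 of 15739 at day 22, 9 of them higher. Of the round spermatid markers at day 20, 2 were called without KO_d20_3, and 1 without KO_d20_4, WT_d20_1, WT_d20_2 or WT_d20_3. Of the elongating spermatid markers, 0 were called at day 20 without WT_d20_2 or WT_d20_3, and 0 at day 22 without KO_d22_2 or any 1 of the 4 WT libraries of that day. Undifferentiated spermatogonia markers summed to 185 to 205 CPM in KO and 166 to 247 in WT at day 20, with a median log2 difference of -0.11 over 13 tested. Whether the cell makeup had a part in the day 20 values of the 8 genes was not tested.

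The genes that act around the 8 were described by 4 lists with 52 tested members. *Kitl*, the ligand of KIT that Sertoli cells make, averaged 169 ± 52.2 CPM in WT and 155 ± 11.8 in KO at day 20 (n = 4 each), and 109 ± 8.69 and 79.8 ± 0.922 at day 26 (n = 2 each). It fell with age by 0.63 in WT (SE 0.212, adjusted p = 0.0205) and by 0.96 in KO (SE 0.216, adjusted p = 0.00101), but the WT call was lost without either day 26 WT library (adjusted p = 0.0571 and 0.156). Its KO difference was -0.45 at day 26 (SE 0.240, adjusted p = 0.484) and -0.19 over the mean of the days (SE 0.103, adjusted p = 0.289). *Rbm46*, whose protein binds RNA together with MEIOC and YTHDC2, changed with age by -0.58 in WT (SE 0.231, adjusted p = 0.0474) and by -0.34 in KO (SE 0.229, adjusted p = 0.224). The WT call of *Rbm46* held under 2 of 5 other settings, DESeq2 not among them (adjusted p = 0.0551), and in 13 of the 24 fits that left out a library. The KO change was called with scaling by library totals (-0.53, adjusted p = 0.0236). *Meiosin* was not analysed here.

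Among 12 tested genes of signals received by spermatogonia, which cover retinoic acid synthesis, its receptors and Sertoli cell factors, 4 fell with age in WT, and 6 fell and 1 rose in KO. The counts of this list and of the other 3 stand beside shares of 24.4% up and 18.1% down in WT, and 27.2% up and 24.9% down in KO, over all tested genes. Over the 52 together 3 rose and 19 fell in WT and 8 rose and 23 fell in KO, where scaling by library totals gave 3 and 25 in WT and 3 and 32 in KO, and RLE 3 and 15 in WT and 8 and 18 in KO. In KO these included *Cyp26b1*, which degrades retinoic acid (-1.45, SE 0.280, adjusted p = 0.000257), and *Gdnf*, the niche factor of stem spermatogonia (-1.41, SE 0.314, adjusted p = 0.000922). Among 12 regulators acting in spermatogonia, 3 fell and 2 rose in WT and 6 fell and 3 rose in KO. The WT changes included *Rhox13* (-1.25, SE 0.325, adjusted p = 0.00400; 0.0688 without WT_d26_1) and *Taf4b* (-1.11, SE 0.205, adjusted p = 0.000178), and rises of the demethylase gene *Kdm1a* (0.56, SE 0.127, adjusted p = 0.00120) and of the germ cell helicase gene *Ddx4* (0.41, SE 0.132, adjusted p = 0.0160; 0.257 without WT_d26_2 and 0.0581 without WT_d20_3). Of 10 tested partners of the meiotic entry factors, 5 fell in WT and 5 in KO. Of 18 genes of early meiotic prophase, 7 fell and 1 rose in WT and 6 fell and 4 rose in KO, with medians of -0.46 and -0.40. *Prdm9*, which marks recombination sites, fell in WT by 1.06 (SE 0.229, adjusted p = 0.000807), and *Mei4*, needed for DNA double-strand breaks, fell in KO by 1.61 (SE 0.354, adjusted p = 0.000827). *Rec8*, the meiotic cohesin subunit, rose by 2.21 in WT (SE 0.268, adjusted p = 1.05e-06) and by 1.91 in KO (SE 0.266, adjusted p = 1.03e-05). In KO the cohesin gene *Stag3* rose by 0.60 (SE 0.138, adjusted p = 0.00118), as did *Spo11*, which encodes the enzyme of meiotic double-strand breaks (0.60, SE 0.150, adjusted p = 0.00229). From day 20 to day 26 the group means of the genes named here for a single genotype moved the same way in the other. The edgeR test of the difference between the KO and the WT change called 0 of the 52 and 0 of all tested genes. It gave an unadjusted p under 0.05 for 4 of the 52, beside 1857 of the 17170 tested genes.

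Between KO and WT, the edgeR fit over all groups called 0 of the 52 at any single day, with 2, 5, 3 and 9 at an unadjusted p under 0.05 from day 20 to day 26, beside 2141, 2505, 898 and 1979 of the 17170 tested genes. With each day fitted alone, edgeR called 7 of the 52 at day 26, where 12.8% of all genes tested were called, and 0 at the other days. *Spo11* and *Syce2* were higher in KO in that fit, and *Kitl*, *Ccnd1*, *Ccnd2*, *Rb1* and *Hormad1* lower. DESeq2 called 1 gene, *Spo11* at day 26 (adjusted p = 0.0463). Over the mean of the days 2 of the 52 were called by edgeR, where 7.08% of all tested genes were, and DESeq2 called the same number. *Ccnd1*, a cyclin of the G1 phase used by spermatogonia and many other cells, was lower in KO by a log2 difference of -0.42 (SE 0.0922, adjusted p = 0.0122), with 20.9 ± 0.658 CPM in WT and 12.4 ± 0.923 in KO at day 26. Of the somatic cell markers in the same comparison, 2 of 6 peritubular (median log2 difference -0.43) and 2 of 5 endothelial markers (-0.42) were lower in KO, 1 of 8 Leydig markers was higher (0.32), and 0 of 12 Sertoli (-0.0088) and 0 of 6 macrophage markers (0.04) were called. Of 13 tested markers of undifferentiated spermatogonia, 1 was lower in KO (median -0.16). The part of these cells in the *Ccnd1* difference was not tested. *Spo11* was higher by 0.28 (SE 0.0766, adjusted p = 0.0326), with 65.0 ± 0.592 CPM in WT and 98.7 ± 3.31 in KO at day 26. In the same comparison all 7 elongating and 4 of 9 round spermatid markers were higher in KO (medians 2.64 and 1.07) and 0 of 10 pachytene markers were called (median 0.18), and their part in the *Spo11* difference was not tested. The *Ccnd1* call was lost without WT_d24_2 or KO_d26_1 (adjusted p = 0.0653 and 0.0520), and the *Spo11* call held in 15 of the 24 fits that left out a library (adjusted p up to 0.0904 in the others).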

How the data were processed

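Whole testis RNA-seq of WT and *Atad2* KO mice at 4 ages was used. The authors aligned read pairs to mm10 with STAR 2.7.11b and counted them on exons with HTSeq, strand-specifically and without multi-mapped pairs. The processing notes also name DESeq2 1.22.2. What was deposited are raw counts for each gene, neither normalized nor pooled, and the version of the gene models is not given in the sources used here. The 5 tallies of unassigned pairs entered neither the library sizes nor the tests. Pairs outside exons took 45.1% to 58.5% of a library, and pairs with several alignments, which were discarded, 4.74% to 13.7%.

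Groups and replicate numbers came from the sample labels. The study's methods give fewer replicates at day 20 than the labels, and all labelled libraries were used. The methods call them biological replicates, and the labels give only a number, so that p-values measure the spread between these libraries. Libraries of a group always differed by more than sampling noise.

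The count test was quasi-likelihood in edgeR 4.0.16 (R 4.3.3, limma 3.58.1), with TMM scaling and filterByExpr at a minimum count of 10. The robust model had the 8 groups as coefficients and all 24 libraries. Tests were two-sided with Benjamini-Hochberg adjustment over the 17170 tested genes. The joint test covered the 3 contrasts of the KO difference at the later days with that at day 20. Fold changes are log2, from counts. Intervals are at the 95% level. CPM values were scaled by TMM, and CPM per kb used the union of GENCODE M21 exons. Named genes were the 8 in every comparison, *Kitl* and *Rbm46*, other pathway genes called between KO and WT, and the 3 largest called changes with age in each direction and genotype over the lists. Likeness was the root mean square difference of centred log2 CPM (prior count 2) among genes of at least 1 CPM. The scripts were tested on simulated data. Alternatives were other scalings, no filter, DESeq2 1.42.0, a replicate block, each day fitted alone and each library left out. The genes, lists and tests were chosen with earlier results of these data known.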

Additional observations from a re-analysis of the deposited data

Results flagged for a closer look

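In 32 groups of 4 libraries, 2 had a library far from the other 3 by Dixon's test at its 95% level, which chance alone gives in about 1 of 20 groups. *Stra8* reached 45.1 CPM in WT_d20_2, against 31.2 to 32.8 in the other WT libraries of day 20. It reached 21.6 CPM in WT_d22_3, against 18.1 to 18.4 in the other WT libraries of day 22. The low *Dmrtb1* value of WT_d20_2, 44.1 against 164 to 190 CPM, did not reach the critical ratio of 0.829.

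Opposite KO differences at separate days, each without overlap of the libraries, were seen for 2 genes of the 8, where 10.6% of all tested genes showed this for some pair of days. *Sohlh1* was lower in all KO libraries at day 20 and higher in both at day 24, as 0.949% of tested genes did in either order for these days, and its joint test over the days had an adjusted p of 0.640. *Dmrtb1* was lower in both KO libraries at day 24 and higher in both at day 26, as 8.58% of tested genes did in either order, and its joint test had an adjusted p of 0.972. The difference between these pairs of days was not tested by itself.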

How the results depend on the processing

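The count of the 8 genes called between KO and WT was 0 to 1 at day 20 over the fits that left out a library, with 1 without KO_d20_2 (*Stra8*), and 0 to 1 over the mean of the days, with 1 without KO_d20_2 (*Kit*, -0.28). The fit without KO_d20_2 called 780 of 17142 genes at day 20 and 1631 over the mean of the days. With each day fitted alone the count of the 8 was 1 at day 26 (*Dmrtb1*, 0.44, adjusted p = 0.0228), a setting that over all genes called 2104 at day 26 against 8 in the shared fit, but 5 at day 20 against 573 (0 higher in KO against 511) and 69 at day 22 against 431 (9 higher against 217). Leaving out a library took the day 20 difference of *Dmrtb1* to between -0.033 and 0.43, with the reversal to -0.033 without WT_d20_2. The cause of these changes was not tested. Of 2700 alternative values for the named genes, 34 lost a call, 15 gained one, 1 was reversed and 2650 were read as unchanged. These 2650 include 92 values, of 20 results, whose sign changed where the value in the shared fit was smaller than its own SE. They also include joint tests, which have no direction. Many of the alternatives left out a library from outside the groups compared. Scaling by library totals shifted the median of all genes by -0.10 with age in WT and -0.19 in KO, and under it *Meioc* (-0.48 in WT, -0.51 in KO) and *Stra8* in KO (-0.77) were called. The counts of all genes called moved with the fit, from 573 to 888 at day 20, 431 to 737 at day 22, 15 to 37 at day 24 and 8 to 138 at day 26 with DESeq2, which called 1784 against 1215 over the mean of the days, 211 against 0 for the difference of the age changes and 264 against 1 in the joint test. Leaving out a library took them to 151 to 780 at day 20 (fewest without WT_d20_3, most without KO_d20_2), 60 to 858 for day 22 (without WT_d22_4 and KO_d22_1), 0 to 24 for day 24, 0 to 103 for day 26 and 302 to 1737 over the mean of the days (without WT_d24_2 and KO_d22_1), and to 4724 to 7971 with age in WT and 5829 to 10147 in KO. For the difference of the age changes the range was 0 to 326, and for the joint test 0 to 140, each with the most without KO_d20_2. Same-numbered libraries were not shown to pair (correlation of deviations 0.0705 to 0.41 at day 20, -0.459 to -0.0254 at day 22, and 0.39 and 0.416 for the later days), and 6 of 8 libraries at day 20 and 0 of 8 at day 22 correlated best with their own number. With the replicate number as a block, edgeR called 333 genes for day 20 (287 higher in KO), 235 for day 22 (53 higher) and 898 over the mean of the days, but 0 of the 8 between KO and WT, and *Meioc* (-0.57 in WT, -0.49 in KO) and *Stra8* in KO (-0.65, adjusted p = 0.0362) were called with age, as was *Rbm46* in KO (-0.52, adjusted p = 0.0219). Days 24 and 26 have 2 libraries per genotype, and depth limits *Sohlh1* most, at 2.17 to 5.58 CPM.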

Other observations

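For each of the 8 genes, the tested genes outside the set with the most similar course over the 24 libraries were found among 15434 genes of at least 1 CPM, by the root mean square (RMS) difference of log2 CPM after centring each gene. The closest to *Meioc* were *Lin9* (0.0760), which encodes a subunit of the DREAM complex, and *Ptbp2* (0.0815), which encodes a splicing regulator, where the spread of *Meioc* itself was 0.263. The closest to *Stra8* was *Prdm9* (0.158), followed by *Tmem255a* (0.165), with a spread of *Stra8* of 0.465. For *Kit* they were *Mef2c* and *Mbnl2* (0.128 each), and for *Dmrtb1* they were *Tprn* (0.111) and *Rimbp3* (0.122), against spreads of 0.367 and 0.762. *Dhx33* (0.145) and *Trank1* (0.152) were closest to *Sohlh1*, and *Casp2* (0.132) and *Utp20* (0.144) to *Sohlh2*. *Mettl13* (0.108) and *Peg10* (0.120) were closest to *Dmrt1*, and *Atp11b* (0.0917) and *Rrn3* (0.0922) to *Ythdc2*. Among the 8 genes alone, *Meioc* and *Ythdc2* were nearest to each other (0.190), as were *Sohlh1* and *Sohlh2* (0.231), but many genes outside the set were nearer to each of them, 954 to *Meioc*, 911 to *Ythdc2*, 671 to *Sohlh1* and 382 to *Sohlh2*. Of the 8, *Dmrtb1* was farthest from the others (0.966 to its nearest). These measures describe 24 libraries that share age and cell makeup.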
